A study of Mus musculus with 4 samples.

Results

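The cells described here were T cells recovered from mouse hearts, most of them of the CD8 lineage, in 2 single-cell libraries made by CITE-seq, in which each droplet reports both its RNA and the antibodies bound to its cell. Barcodes with at least 200 genes and under 10% mitochondrial unique molecular identifiers (UMIs, the count of captured transcript molecules) were kept. A kept barcode was taken as a T cell when it held at least 2 UMIs of Cd3d, Cd3e and Cd3g together, at most 9 of C1qa, C1qb and C1qc, at most 4 of Cd79a, Cd79b and Ms4a1, at most 2 of Csf3r and Retnlg, and at most 1 of Ncr1 and Klre1. These limits gave 175 T cells of 6836 kept barcodes (11995 barcodes in all), with 142 in the anti-CD40 library and 33 in the isotype library. T cells with at least 2 UMIs of Cd8a and Cd8b1 together are called CD8 T cells, and those with 0 are called Cd8-zero T cells.

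The study asked how activating CD40 changes the immune cells of the heart. C57BL6J mice had received either an agonist antibody against CD40 or Rat IgG as isotype control. Each library was made from the pooled hearts of 4 mice, freed of their atria and digested with enzymes, so there was 1 library per group. Doses, times and ages are not given in the sources used here. The sort is given as CD45+DAPI- in the sample labels and as DRAQ5+DAPI- in the text on the series, and which one applied could not be settled. No test between the groups was possible. All intervals below are exact 95% intervals for counting error and hold nothing of the spread between mice. Those of UMI levels and ratios also hold nothing of the spread between cells. The effect of the antibody and that of the preparation cannot be told apart.

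CD40 sits on B cells, dendritic cells and macrophages, where helper T cells engage it through CD40 ligand, and antigen-presenting cells activated in this way can prime CD8 T cells. A naive CD8 T cell carries CCR7 and the interleukin-7 receptor and circulates through lymph nodes under the transcription factors TCF1 and LEF1. After priming it divides, loses much of this programme, and gains granzymes, interferon-gamma and chemokines with which it acts in tissues.

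The T cell identity of the chosen barcodes was checked on markers first. Among CD8 T cells, Cd3d was detected in 104 of 108 anti-CD40 cells and in all 14 isotype cells, Cd8b1 in 105 and 13, and Cd8a in 96 and 12, as the choice of cells requires. Of the genes the choice did not use, the T cell receptor constant gene Trbc2 was detected in 101 and 14 cells and Trac in 95 and 12. Trac stood at 556 CPM (counts per 1000000 gene UMIs of the cell set) in anti-CD40 CD8 T cells and at 613 CPM in isotype ones, against 1.70 CPM in anti-CD40 phagocytes, the barcodes with at least 10 C1q UMIs and no Cd3 UMI. Cd4 had 1 UMI in anti-CD40 CD8 T cells and 0 in isotype ones, and neither Foxp3, the regulatory T cell factor, nor the gamma-delta receptor gene Trdc had a UMI in either set.

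The antibody tags, which had no part in choosing the cells, gave the same lineage. The CD8a tag exceeded the CD4 tag in 108 of 108 anti-CD40 and 14 of 14 isotype CD8 T cells. The CD8a tag had a median of 41.5 UMIs per cell (range 7 to 152) in anti-CD40 CD8 T cells and 63 (range 28 to 107) in isotype ones. These ranges overlap, and no CD8 T cell of either library lacked the tag.

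**Figure D1:**
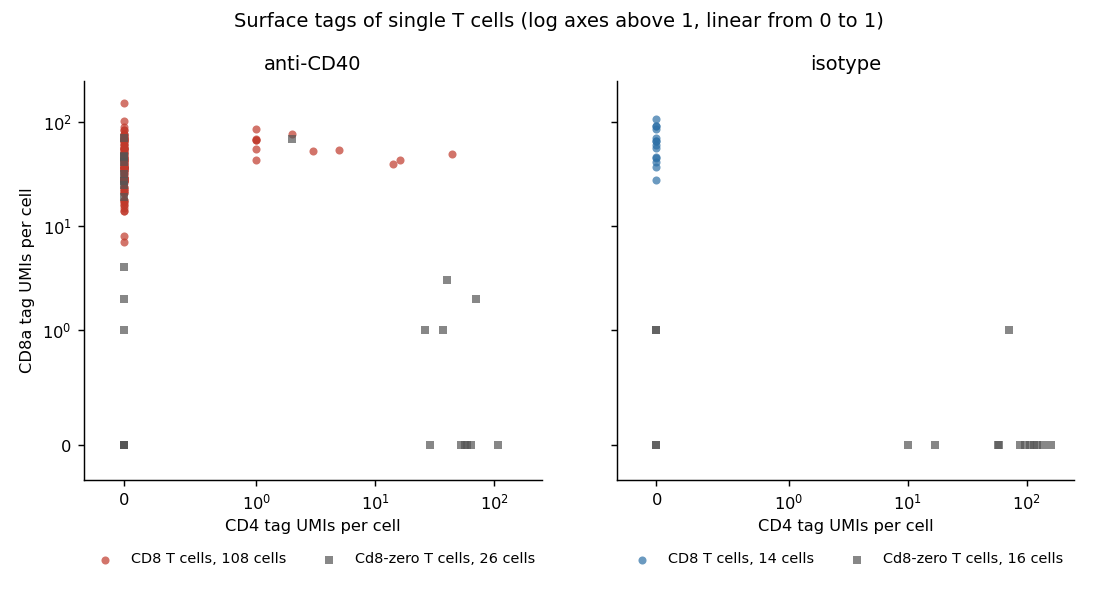
CD8a tag UMIs (vertical axis) against CD4 tag UMIs (horizontal axis) of each T cell, on axes that are logarithmic above 1 and linear from 0 to 1, for the anti-CD40 library (left) and the isotype library (right). Round points are CD8 T cells, all with more CD8a than CD4 tag UMIs, and square points are Cd8-zero T cells, which fall into CD4-tagged cells (10 and 12), CD8a-tagged cells (9 and 0) and cells near 0 on both axes.

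T cells were 3.32% (2.80 to 3.90) of kept anti-CD40 barcodes and 1.29% (0.890 to 1.81) of kept isotype barcodes. CD8 T cells were 108 of 142 T cells (76.1%, 68.2 to 82.8) in the anti-CD40 library and 14 of 33 (42.4%, 25.5 to 60.8) in the isotype library. Cd8-zero T cells were 26 of 142 (18.3%, 12.3 to 25.7) and 16 of 33 (48.5%, 30.8 to 66.5). As a share of all kept barcodes the CD8 T cells were 2.52% (2.08 to 3.04) and 0.547% (0.300 to 0.917), while the Cd8-zero T cells were 0.608% (0.397 to 0.889) and 0.625% (0.358 to 1.01). The intervals of the CD8 shares do not overlap between the libraries, either of T cells or of kept barcodes. For the Cd8-zero T cells, the intervals of the share of T cells do not overlap, and those of the share of kept barcodes do. Of the Cd8-zero T cells, 9 anti-CD40 and 0 isotype cells had at least 10 CD8a tag UMIs, so the anti-CD40 set is not free of CD8 cells. The sort before capture and the numbers of all other cells enter these shares.

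The share of T cells depended on how strictly transcripts of other cells were barred. With at most 2 C1q and 1 B cell UMI and none of the neutrophil and NK genes, T cells were 50 of 4278 kept anti-CD40 barcodes (1.17%, 0.869 to 1.54) and 22 of 2558 isotype barcodes (0.860%, 0.540 to 1.30), and these intervals overlap. The CD8 share of T cells under those limits was 72% (57.5 to 83.8) and 45.5% (24.4 to 67.8), also with overlapping intervals. In the droplets that held T cell transcripts together with at least 10 C1q UMIs, 201 in the anti-CD40 and 53 in the isotype library, the CD8 set made up 73.6% and 41.5%.

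Members near the limits were few in the isotype library. A Cd3 sum of 2, just inside, was found in 17 anti-CD40 and 1 isotype cells, and a sum of 1, just outside, in 69 and 23 barcodes. For the C1q genes, 4 and 0 cells had a sum of 9, and 3 and 2 barcodes a sum of 10. A Cd8 sum of 1, which belongs to neither set, was found in 8 anti-CD40 and 3 isotype T cells, and a sum of 2 in 7 and 0.

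The CD8 T cells held 756542 gene UMIs in the anti-CD40 library (median 6313 per cell, range 1274 to 23384) and 110906 in the isotype library (median 5474, range 2180 to 16940). The median mitochondrial share was 3.04% and 5.62%. The Cd8-zero T cells held 119957 UMIs (median 3099) and 89924 UMIs (median 5689.5). Phagocytes were deeper, with medians of 11512 and 9446 UMIs, and B cells, the barcodes with at least 5 UMIs of the B cell genes, numbered 12 in the anti-CD40 library and 357 in the isotype library. The libraries shared 13 barcodes, none of which was a T cell in both. With 14 isotype CD8 T cells, 0 UMIs of a gene leave an upper limit of 33.3 CPM.

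Of the transcripts in CD8 T cells, 2783 genes passed a minimum of 30 UMIs and 5% of cells in the library where they were higher. Of these, 818 (29.4%) were at least 2-fold higher and 49 (1.76%) at least 2-fold lower in anti-CD40 than in isotype CD8 T cells, on a log2 scale with 10 CPM added. The minimum asks for a lower level in the deeper anti-CD40 set. With 300 CPM asked of either library, 108 of 484 genes (22.3%) were higher and 42 (8.68%) lower, so 72% of the genes past 2-fold were higher in place of 94.3%. The median log2 ratio over all genes tested was 0.63, and 0.33 with the 300 CPM minimum, and the lists below are to be read against it. Their members were chosen with earlier results of these data known.

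Genes of killing were higher in the anti-CD40 cells. Of 25 listed genes of cytotoxic effector function, 19 passed the minimum, 14 of them at least 2-fold higher and 0 lower in anti-CD40 CD8 T cells, with a median log2 ratio of 1.80, or 1.69 with the genes at 0 in the isotype library set to their bound. Gzmb (granzyme B, a granule protease that triggers apoptosis) had 470 UMIs in 83 of 108 anti-CD40 CD8 T cells, 621 CPM, and 0 UMIs in the 14 isotype cells, so it was at least 23-fold higher with 3 counts set for isotype. Gzmk, a second granule protease, had 250 UMIs in 78 anti-CD40 cells and 0 in isotype cells and was at least 12.2-fold higher. No isotype CD8 T cell carried a UMI of either granzyme.

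The same genes were rare in cells that should lack them. A Gzmb UMI was found in 76.9% of anti-CD40 CD8 T cells (median 6313 UMIs) and in 4.96% of anti-CD40 phagocytes (median 11512 UMIs) and in 1.57% of isotype phagocytes. For Gzmk the shares were 72.2% in anti-CD40 CD8 T cells and 0.709% in anti-CD40 phagocytes. After each cell was thinned to 1000 UMIs, Gzmb was detected in 42 of 108 anti-CD40 cells (38.9%, 29.7 to 48.7) and 0 of 14 isotype cells, which allows a share of cells with a UMI of up to 21.4% by a floor of 3 cells, with an exact upper limit of 23.2%. Natural killer (NK) cells, another cytotoxic lineage, had a Gzmb UMI in 77.9% of anti-CD40 and 71.9% of isotype cells. Their Gzmb level was 1446 CPM in the anti-CD40 and 584 CPM in the isotype library.

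The death ligand gene Fasl had 95 UMIs in 51 anti-CD40 CD8 T cells and 0 in isotype cells and was at least 4.64-fold higher. Ifng, which encodes interferon-gamma, had 183 UMIs in 61 anti-CD40 cells and 1 UMI in 1 isotype cell, 242 and 9.02 CPM, a ratio of 26.8 (4.76 to 1065). Ccl5, a chemokine for T cells and monocytes, had 11122 and 146 UMIs, 14701 CPM in anti-CD40 and 1316 CPM in isotype CD8 T cells, a ratio of 11.2 (9.49 to 13.2). It was found in 103 of 108 anti-CD40 and 6 of 14 isotype cells, and 75.3% of the isotype UMIs lay in 2 cells. In phagocytes a Ccl5 UMI was found in 58.6% of anti-CD40 and 14.8% of isotype cells, at 385 and 104 CPM. After thinning the shares were 92.6% of anti-CD40 and 28.6% of isotype CD8 T cells, and 16.9% and 2.97% of phagocytes. Granule genes that resting cells also carry differed less: the NK granule gene Nkg7 stood at 2911 and 829.5 CPM, and Prf1, the pore-forming perforin, at 88.6 and 72.1 CPM. Both of these, and other list members named below beyond the largest and most abundant, were chosen after their values were seen.

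Gzma, listed with the NK cell genes, had 554 UMIs in 45 anti-CD40 and 2 UMIs in 2 isotype CD8 T cells, a ratio of 40.6 (11.2 to 336). Of the anti-CD40 UMIs 39.9% lay in 2 cells, and 15.8% of anti-CD40 phagocytes had a Gzma UMI, at 107 CPM. Of 15 listed NK-type receptors and adaptors, 6 passed the minimum, 4 were higher and 0 lower, with a median of 1.73, or 1.38 with the gene at 0 at its bound. Klrg1, an inhibitory receptor of late effector cells, had 57 UMIs in 30 anti-CD40 cells and 0 in isotype cells and was at least 2.79-fold higher. The adaptor genes Fcer1g and Tyrobp were also higher, but phagocytes express both strongly, and Fcer1g is among the phagocyte genes described below.

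**Figure D2:**
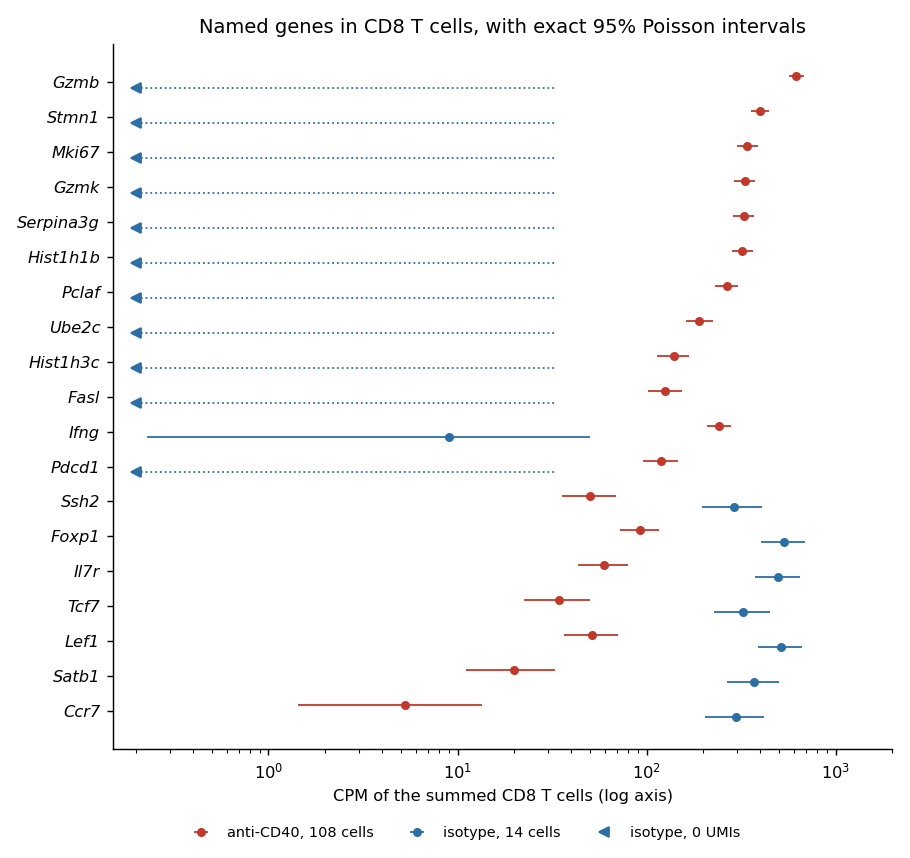
Level in summed CD8 T cells, in CPM on a log axis, of the 12 highest and of 7 of the 8 lowest genes by log2 ratio, with exact 95% Poisson intervals as bars (anti-CD40 above isotype in each pair). Arrows at the left edge mark genes with 0 UMIs in the isotype library, drawn with dotted lines up to the upper end of their interval (33.3 CPM); of the 12 highest genes only Ifng had an isotype UMI.

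The receptors that restrain activated T cells were higher as well. Of 20 listed checkpoint and exhaustion genes 11 passed the minimum, 9 were higher and 0 lower, with a median log2 ratio of 2.39, or 1.67 with the genes at 0 set to their bound. Pdcd1, which encodes the checkpoint receptor PD-1, had 90 UMIs in 43 anti-CD40 CD8 T cells and 0 in isotype cells and was at least 4.40-fold higher. NK cells held Pdcd1 at 41.4 CPM in the anti-CD40 and 3.17 CPM in the isotype library. Lag3, another inhibitory receptor, had 71 UMIs in 36 anti-CD40 cells and 0 in isotype cells, and Tox, a transcription factor of chronically stimulated T cells, was at 147 CPM in 48 anti-CD40 cells and 9.02 CPM in 1 isotype cell. Lgals3, a galectin, had the largest log2 ratio of the list, 4.83, with 403 UMIs in anti-CD40 and 1 UMI in isotype CD8 T cells. Anti-CD40 phagocytes carried it at 999.8 CPM, against 533 CPM in the anti-CD40 CD8 T cells.

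Effector differentiation genes were split. Of 18 listed, 11 passed the minimum, 6 were higher and 0 lower, with a median of 1.54, or 1.48 with the genes at 0 at their bound. Id2, a regulator that favours effector CD8 T cells, stood at 731 CPM in anti-CD40 and 144 CPM in isotype cells, a ratio of 5.07 (3.09 to 8.93). Tbx21, which encodes the effector factor T-bet, had 59 UMIs in 37 anti-CD40 cells and 2 UMIs in 2 isotype cells. Runx3, which maintains the CD8 lineage, was at 325 and 361 CPM, a ratio of 0.902 (0.643 to 1.29), and Eomes, a factor of memory and effector cells, at 91.2 and 72.1 CPM, a ratio of 1.26 (0.607 to 3.04). The intervals of both include no difference.

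Genes of naive and memory cells went the other way. Of 20 listed, 12 passed the minimum, 0 were higher and 9 were lower in anti-CD40 CD8 T cells, with a median log2 ratio of -2.63, where 1.76% of all genes tested were lower. Ccr7, the receptor for lymph node entry, had 4 UMIs in 1 of 108 anti-CD40 cells and 33 UMIs in 8 of 14 isotype cells, 5.29 and 298 CPM, and was 56.3-fold (20.0 to 219) lower. Satb1, a chromatin organiser, was 18.6-fold (10.1 to 36.3) lower.

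The transcription factors of the naive programme followed. Lef1 had 39 UMIs in 21 anti-CD40 cells and 57 UMIs in 13 isotype cells, 51.6 and 514 CPM, and was 9.97-fold (6.52 to 15.4) lower. Tcf7, which encodes TCF1, was at 34.4 and 325 CPM. Il7r, the receptor for the survival cytokine interleukin-7, was at 59.5 and 496 CPM and 8.34-fold (5.52 to 12.7) lower. Foxp1, a factor of T cell quiescence, was 5.75-fold (4.00 to 8.25) lower, and Ssh2, a phosphatase of the actin regulator cofilin, 5.74-fold lower.

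Other cells of the isotype library also carried part of these genes. Isotype phagocytes held Ccr7 at 75.1 CPM, isotype B cells held it at 326 CPM, and the 13 B cell genes summed to 91.2 CPM in anti-CD40 and 649 CPM in isotype CD8 T cells, with 6 and 10 of them detected. Their part in Ccr7, Satb1, Foxp1 and Ssh2 was not tested. Lef1 stood at 5.93 CPM in isotype phagocytes and 9.71 CPM in isotype B cells, Tcf7 at 1.98 and 1.14 CPM, and Il7r at 10.1 and 1.14 CPM, against 514, 325 and 496 CPM in the isotype CD8 T cells. A Lef1 UMI was found in 13 of 14 isotype CD8 T cells (92.9%), in 5.20% of isotype phagocytes and in 4.20% of isotype B cells (median 4582 UMIs). Some of these genes were also lower in other anti-CD40 cells. Phagocytes held Foxp1 at 144 CPM in the anti-CD40 and 403 CPM in the isotype library, and Ssh2 at 96.7 and 264 CPM. In NK cells Foxp1 was at 97.0 and 259 CPM, Ssh2 at 45.5 and 152 CPM and Satb1 at 52.5 and 246 CPM. Lef1 there was at 14.1 and 90.4 CPM and Tcf7 at 7.07 and 41.2 CPM. Il7r differed little in phagocytes, at 9.53 and 10.1 CPM.

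Summed per cell, the cytotoxic and the naive genes differed in opposite directions between the libraries. In cells thinned to 1000 UMIs, 21 cytotoxic genes summed to a median of 18 UMIs (range 0 to 108) in anti-CD40 and 1 UMI (range 0 to 23) in isotype CD8 T cells. The 16 naive genes summed to a median of 1 UMI (range 0 to 5) and 6 UMIs (range 1 to 10). Naive UMIs outnumbered cytotoxic UMIs in 2 of 108 anti-CD40 and 12 of 14 isotype CD8 T cells. The ranges overlap, and 1 isotype CD8 T cell had more cytotoxic than naive UMIs. Ccl5 weighs most in the cytotoxic sum, since it stood at 14701 CPM in anti-CD40 CD8 T cells, against 2911 CPM for Nkg7. How the sums compare without Ccl5 was not tested.

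**Figure D3:**
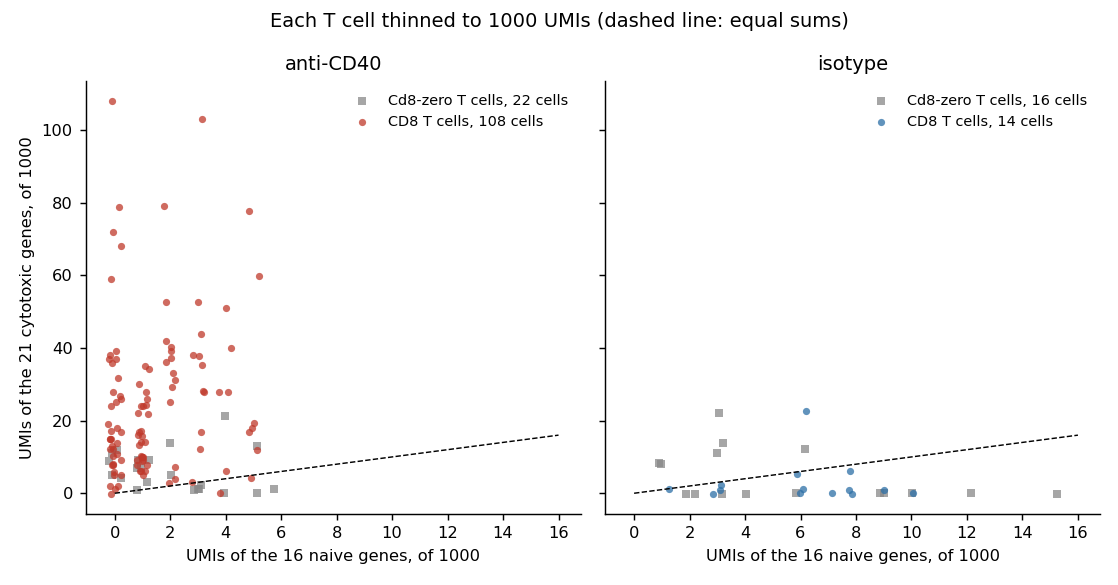
Summed UMIs of 21 cytotoxic genes (vertical axis) against 16 naive genes (horizontal axis) in each T cell after thinning to 1000 UMIs, 1 slightly jittered point per cell, with anti-CD40 left, isotype right and a dashed line where the sums are equal. Anti-CD40 CD8 T cells reach 108 cytotoxic UMIs with at most 5 naive UMIs, and 12 of the 14 isotype CD8 T cells lie on the naive side of the line.

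Pairs of transcripts were counted in single anti-CD40 CD8 T cells. Gzmb and Gzmk were both detected in 70 of 108 cells, where the product of their single shares gives 59.9 cells. Tox and Pdcd1 were both detected in 25 cells (19.1), and Gzmk and Pdcd1 in 35 (31.1). Pairs nearer to the product were Gzmb and Ifng in 50 cells (46.9) and Gzmb and Pdcd1 in 35 (33.0). So were Gzmb and Mki67 in 32 (31.5), and Ifng and Pdcd1 in 23 (24.3). Il7r and Gzmb were found together in 8 cells (9.99). Of the 21 anti-CD40 cells with a Lef1 UMI, 18 also had Gzmb (16.1). Deeper cells are more likely to show any pair, so these counts are a description.

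Transcripts of division were higher in anti-CD40 CD8 T cells. Of 32 listed cell cycle genes, 29 passed the minimum, 28 were higher and 0 lower, with a median log2 ratio of 2.43, or 2.20 with the genes at 0 set to their bound. Mki67, which encodes the proliferation antigen Ki-67, had 259 UMIs in 41 anti-CD40 cells and 0 in isotype cells and was at least 12.7-fold higher. Stmn1, which destabilises microtubules, had 302 UMIs in 40 cells and 0, and was at least 14.8-fold higher. Hmgb2, a chromatin protein gene and the most abundant of the examples, was found in 97 of 108 anti-CD40 and 11 of 14 isotype cells, at 1782 and 369.7 CPM.

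The replication-coupled genes were found in fewer cells. Pclaf, a partner of the replication clamp PCNA, had 201 UMIs in 28 anti-CD40 cells and 0 in isotype cells and was at least 9.82-fold higher. Hist1h1b, a linker histone, had 243 UMIs in 26 cells, and Hist1h3c, a core histone, had 105 UMIs in 17 cells, each with 0 UMIs in isotype cells. Ube2c, which marks mitotic proteins for destruction, had 144 UMIs in 29 cells and 0, of which 47.9% lay in 2 cells.

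Phagocytes also carried cell cycle transcripts, and a Mki67 UMI was found in 38.0% of anti-CD40 CD8 T cells and in 25.6% of the deeper anti-CD40 phagocytes. Mki67 was at 342 CPM in anti-CD40 CD8 T cells and 119.6 CPM in anti-CD40 phagocytes. After thinning, 20.4% (13.2 to 29.2) of anti-CD40 CD8 T cells and 0 of 14 isotype ones held Mki67, and 0 of 14 allows a share of up to 21.4%, so no difference was detectable at this number of cells. At least 3 UMIs of 12 cycle genes were found in 22 of 108 anti-CD40 and 0 of 14 isotype cells, with the same limit. In the 22 anti-CD40 cells the cytotoxic genes had a median of 8.50 UMIs (range 0 to 36), and in the other 86 a median of 25 (range 0 to 108). All were thinned to the same total, which the cycle genes share, and Ccl5 weighs most in the cytotoxic sum.

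The promoters of Pclaf and Ube2c are shown because both genes were among the highest and each holds letters known from cell cycle genes. They are RefSeq sequence of build GRCm38.p6, plus strand, 250 bases before to 50 after the start of the gene, 5′ to 3′. The Pclaf promoter is chr9:65890073-65890372, with an E2F site (TTTCCCGC or TTTGGCGC, searched on both strands) in capitals that begins at position -5. The Ube2c promoter is chr2:164769679-164769978, with the cell cycle homology region (TTTGAA, both strands) in capitals at -29.
Pclaf: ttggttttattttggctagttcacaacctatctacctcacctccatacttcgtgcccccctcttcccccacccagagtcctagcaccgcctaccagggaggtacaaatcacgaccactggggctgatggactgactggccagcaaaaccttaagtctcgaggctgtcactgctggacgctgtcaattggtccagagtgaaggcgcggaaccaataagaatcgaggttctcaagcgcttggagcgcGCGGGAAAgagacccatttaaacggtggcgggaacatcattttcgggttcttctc
Ube2c: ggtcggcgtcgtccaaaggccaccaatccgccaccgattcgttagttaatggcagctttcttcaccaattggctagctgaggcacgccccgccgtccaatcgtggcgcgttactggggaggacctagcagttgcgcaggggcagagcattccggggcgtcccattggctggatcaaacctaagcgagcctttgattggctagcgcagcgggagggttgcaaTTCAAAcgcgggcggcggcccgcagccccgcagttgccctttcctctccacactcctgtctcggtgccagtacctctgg
The E2F letters occurred in 5 of the 28 cell cycle promoters matched of 32 listed (17.9%) and in 441 of all 27025 promoters (1.63%). The TTTGAA letters occurred in 11 of the 28 (39.3%) and in 18.1% of all promoters. A match is a description of the letters and does not show that a factor was bound.

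Genes of glycolysis, which dividing and activated T cells use heavily, were higher in 12 of the 13 that passed the minimum of 18 listed, with a median log2 ratio of 1.41. Gapdh was at 2819 CPM in anti-CD40 and 775 CPM in isotype CD8 T cells, a ratio of 3.64 (2.93 to 4.56). It was also higher in other anti-CD40 cells, so this difference is not particular to CD8 T cells. Its levels were 2117 and 727 CPM in phagocytes, 1686 and 577 CPM in NK cells, and 863 and 516 CPM in B cells. Tpi1, the triose isomerase, had 224 and 1 UMIs, and Pfkp, a phosphofructokinase, had 153 and 2 UMIs.

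Interferon-gamma response genes were higher in 14 and lower in 0 of the 25 that passed the minimum of 36 listed, with a median of 1.19, or 1.15 with the genes at 0 at their bound. Serpina3g, a serine protease inhibitor gene induced by interferon in mouse cells, had 248 UMIs in 76 of 108 anti-CD40 cells and 0 in isotype cells and was at least 12.1-fold higher. AW112010 was at 2066 and 505 CPM, a ratio of 4.09 (3.13 to 5.44). Ly6a, which encodes the activation antigen Sca-1, had 680 UMIs in 95 anti-CD40 cells and 9 UMIs in 2 isotype cells, a ratio of 11.1 (5.80 to 24.3). Ly6a and Serpina3g were also higher in other anti-CD40 cells. Ly6a was at 1682 CPM in anti-CD40 and 39.0 CPM in isotype phagocytes, 636 and 3.17 CPM in NK cells, and 1322 and 259 CPM in B cells. Serpina3g was at 214 and 7.15 CPM in phagocytes, 299 and 79.3 CPM in NK cells, and 626 and 26.3 CPM in B cells.

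Type I interferon genes and class I antigen presentation genes were nearer to the median of all genes. Of 42 listed type I genes 21 passed, 7 were higher and 0 lower, with a median of 0.80. Of 22 presentation genes 20 passed, 8 were higher and 0 lower, with a median of 0.92. H2-K1, a class I heavy chain, was at 3319 and 1794 CPM, a ratio of 1.85 (1.60 to 2.15), and Tap1, the peptide transporter, at 303 and 90.2 CPM. The shares of members higher, 7 of 21 and 8 of 20, compare with 29.4% of all genes tested.

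The Serpina3g promoter, chr12:104235897-104236196 of GRCm38.p6 on the plus strand, is shown with its 1 interferon-gamma-activated site (GAS, TTCNNNGAA, both strands) in capitals, which begins at position -33.
Serpina3g: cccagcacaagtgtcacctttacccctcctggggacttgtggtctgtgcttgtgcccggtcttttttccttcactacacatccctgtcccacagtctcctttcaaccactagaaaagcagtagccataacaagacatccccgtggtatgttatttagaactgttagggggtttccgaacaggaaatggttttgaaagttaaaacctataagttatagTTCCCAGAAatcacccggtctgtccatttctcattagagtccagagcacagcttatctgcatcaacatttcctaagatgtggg
The GAS letters occurred in 11 of 23 interferon-gamma response promoters matched of 36 listed (47.8%) and in 8.47% of all promoters. The interferon-stimulated response element (GAAA, any 2 bases and GAAA, both strands) occurred in 12 of the 23 (52.2%) and in 3.49% of all.

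Transcripts of phagocytes were also higher in the anti-CD40 CD8 T cells. The 18 phagocyte genes summed to 3698 CPM in anti-CD40 and 902 CPM in isotype CD8 T cells, with 18 and 15 of the 18 detected. Lyz2, a lysozyme, was at 612 and 99.2 CPM and Cd74, the class II invariant chain, at 1328 and 216 CPM. Without the C1q genes, which helped choose the cells, and without Cd74, Ctss and Fcer1g, 12 of these markers remained. They stood at 7.72% of their level in phagocytes in the anti-CD40 library (4.31 to 15.4 by gene) and at 1.48% in the isotype library. Of the interferon-gamma response genes, 22 of 25 stood above 15.4% of the phagocyte level in anti-CD40 CD8 T cells, with a median of 56.1%, and Serpina3g stood at 153%. Iigp1, an interferon-induced GTPase, was within the marker range at 11.4%, and so was Ifitm3, an antiviral membrane protein, at 8.80%. Anti-CD40 phagocytes carry Iigp1, Ifitm3, Irf8, Cx3cr1, Fcer1g, Lgals3 and Ly6a at higher levels than the CD8 T cells. For these genes the part of phagocyte RNA in the CD8 T cell value was not tested. The neutrophil list summed to 323 and 63.1 CPM, with 8 and 4 of its 10 genes detected.

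Genes of positioning in tissue were mixed. Of 24 listed homing and adhesion genes 16 passed, 7 were higher and 2 lower, Ccr7 among them. Over all genes tested, 29.4% were higher and 1.76% lower. Itga4, the alpha-4 integrin chain used to enter inflamed tissue, was at 649 and 207 CPM, a ratio of 3.13 (2.06 to 4.98). Cxcr3, the receptor for interferon-induced chemokines, was at 215 and 270.5 CPM, a ratio of 0.797 (0.537 to 1.22), found in 72 of 108 and 8 of 14 cells. Its interval includes no difference. Cxcr6, a receptor of tissue effector cells, was at 305 and 171 CPM, a ratio of 1.78 (1.12 to 3.01), in 72 anti-CD40 cells and in 2 isotype cells, which held all isotype UMIs.

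Of 14 tissue residence genes 5 passed, 2 were higher and 0 lower: Itga1, the alpha-1 integrin chain, with 43 UMIs in 24 anti-CD40 cells and 0 in isotype cells, and Bhlhe40, with 74 and 3 UMIs. Cd69, an early activation and retention antigen, was at 488 CPM in anti-CD40 and 893 CPM in isotype CD8 T cells, a ratio of 0.546 (0.437 to 0.689). Of 22 genes of the interleukin-2, interleukin-15 and interleukin-12 receptors and their signalling, 9 passed. Of these, 2 were higher (Cish and Il10ra) and Il7r was lower. As 29.4% of all genes tested were higher, the 2 of 5 and 2 of 9 are not read as raised lists. The gene for CD40 ligand, Cd40lg, had 0 UMIs in anti-CD40 and 3 UMIs in isotype CD8 T cells, and Cd40 had 7 and 0.

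Immediate early and stress genes, which rise during tissue digestion, were lower in 6 and higher in 1 of the 16 that passed of 24 listed, with a median log2 ratio of -0.80. Hspa1b, a heat shock chaperone, was at 328 and 1416 CPM, 4.32-fold (3.51 to 5.30) lower, and Jun was at 444 and 1524 CPM. The 1 higher was Hspa8, a constitutive chaperone, at 2615 and 1298 CPM. The 13 T cell identity genes that passed of 20 listed held none past 2-fold, with a median of 0.31; Trbc2 was at 1836 and 1307 CPM and Cd2, an adhesion receptor, at 441 and 252 CPM.

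**Figure D4:**
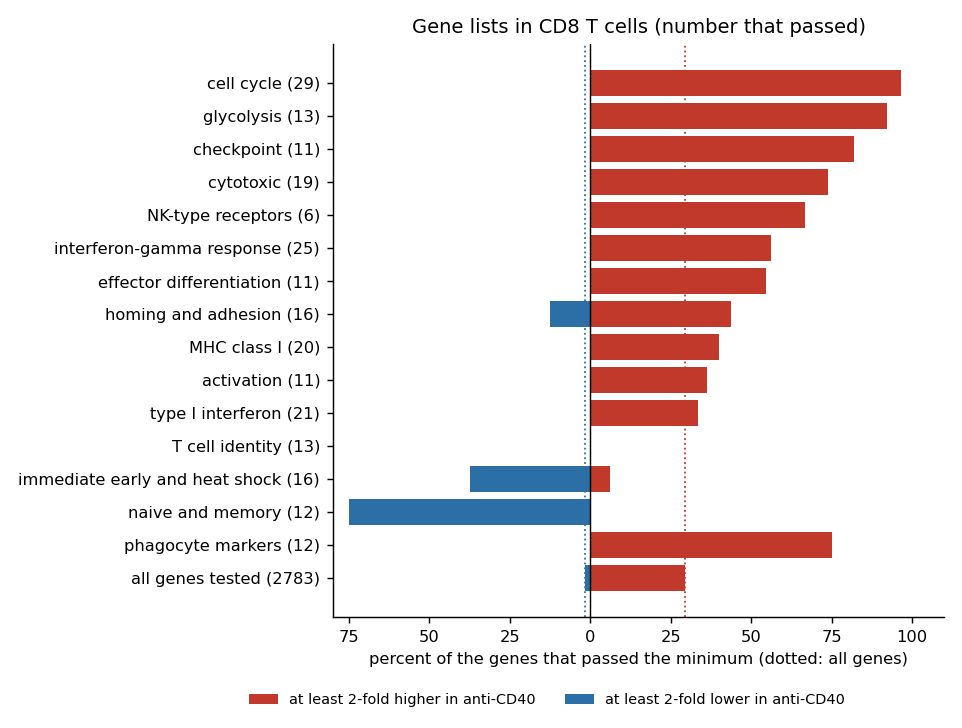
Percent of the members of selected gene lists that were at least 2-fold higher (right of 0) or at least 2-fold lower (left of 0) in anti-CD40 than in isotype CD8 T cells, among the members that passed the minimum (their number is in parentheses), with dotted lines at the shares over all genes tested (29.4% and 1.76%). The cell cycle list is the highest, with 28 of 29, and the naive and memory list is lower in 9 of 12 and higher in 0.

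Antibody tags on the same CD8 T cells gave protein values that did not enter the choice. Tag UMIs numbered 208278 in anti-CD40 and 28214 in isotype CD8 T cells, and levels are given per 10000 of these. Of 189 tags that are not control antibodies, 41 (21.7%) were at least 2-fold higher and 27 (14.3%) at least 2-fold lower. By tag UMIs per cell, 27 were higher and 19 lower. The 9 control tags stood at 0.0960 to 1.10 per 10000 in anti-CD40 and 0 to 0.354 in isotype CD8 T cells.

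The interleukin-7 receptor tag (CD127) was at 8.40 per 10000 in anti-CD40 and 102 in isotype CD8 T cells, 12.2-fold (10.1 to 14.8) lower, with a median of 1 and 17 UMIs per cell. It went the way of its gene, Il7r. The integrin tag CD103 was at 2.74 and 119 per 10000, with at least 3 UMIs in 4 of 108 and 7 of 14 cells.

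The tag of the inhibitory receptor KLRG1 had the highest ratio, at 53.3 per 10000 in anti-CD40 and 0.709 in isotype CD8 T cells, a ratio of 75.2 (20.8 to 622), with at least 3 UMIs in 61 of 108 and 0 of 14 cells. PD-1 (CD279) was at 41.7 and 2.48 per 10000, a ratio of 16.8 (8.12 to 41.9), with a median of 6 and 0 UMIs per cell and at least 3 UMIs in 85 and 1 cells. Sca-1 (Ly-6A/E) was at 169 and 14.5 per 10000, with at least 3 UMIs in all 108 anti-CD40 cells and in 9 isotype cells. SLAM (CD150), a receptor of activated lymphocytes, was at 94.5 and 12.4 per 10000. PD-1 and KLRG1 stood at 3.89 and 6.88 per 10000 in anti-CD40 phagocytes, below the CD8 T cells, and Sca-1 at 350.2, above them. The PD-1 tag was also higher in anti-CD40 than in isotype NK cells, at 19.6 and 3.88 per 10000.

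Some tags belong to other cell types, and the part of such cells in the CD8 T cell values was not tested. CLEC12A (CD371), a myeloid receptor, was at 12.1 and 0.709 per 10000 in CD8 T cells and at 70.3 in anti-CD40 phagocytes. Of the 2 tags named for the macrophage antigen F4/80, one was at 455 per 10000 in anti-CD40 and 69.8 in isotype CD8 T cells, against 2326 in anti-CD40 and 1805 in isotype phagocytes, and the other was at 0.720 and 0.354 in CD8 T cells. The B cell tag IgD was at 0.480 per 10000 in anti-CD40 CD8 T cells and at 14.2 in isotype ones. CD44, a memory and activation antigen, was at 75.2 and 81.5 per 10000, a ratio of 0.923 (0.803 to 1.06), and CD8b at 811 and 787 per 10000, a ratio of 1.03 (0.985 to 1.08).

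**Figure D5:**
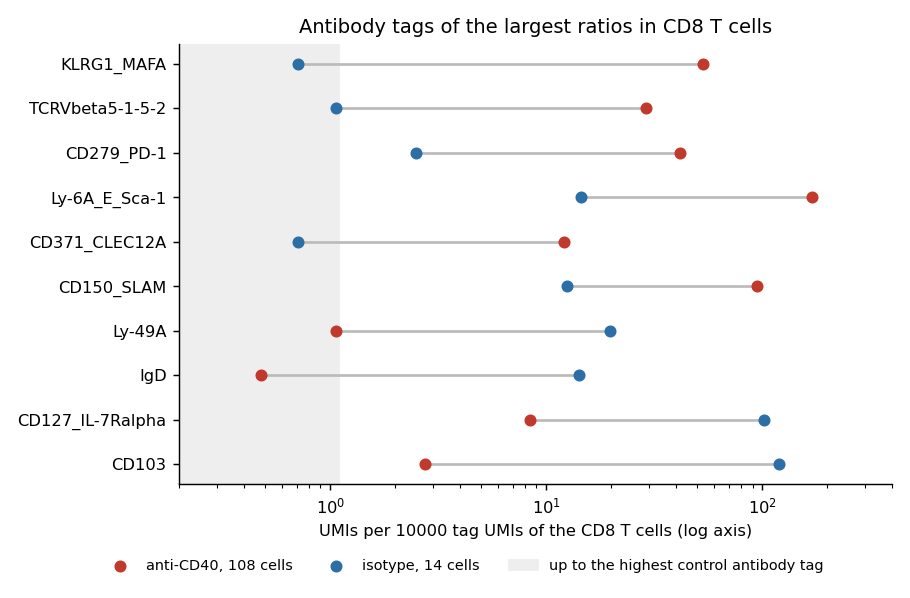
UMIs per 10000 tag UMIs, on a log axis, of the 6 tags with the highest ratio and of 4 of the 6 with the lowest in CD8 T cells, 1 point per library joined by a line, with the range up to the highest control antibody tag (1.10 per 10000) shaded. CD103 and CD127 are lower in anti-CD40 cells, at 2.74 and 8.40 against 119 and 102 per 10000 in isotype cells, and KLRG1 and PD-1 are higher, at 53.3 and 41.7 against 0.709 and 2.48.

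The receptor repertoire could be read only thinly. A Trbv segment UMI was found in 26 of 108 anti-CD40 and 0 of 14 isotype CD8 T cells, with 30 UMIs over 12 segments, of which Trbv3 had 12 in 9 cells. The tag for the V beta 5 receptors had at least 3 UMIs in 20 of 108 anti-CD40 and 0 of 14 isotype cells. A Trav segment was found in 19 and 4 cells. Of the 2 tags named for the gamma-delta receptor, one had a median of 4 UMIs in anti-CD40 and 11.5 in isotype CD8 T cells, and the other a median of 0 in both, with 39 and 2 UMIs in all. As Trdc had 0 UMIs in these cells and the tags differ, what the first one bound is not known, and it is not read as that receptor. The gene Tcrg-C2, a gamma chain constant gene, was at 173 and 36.1 CPM.

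Cd8-zero T cells were a mixed set. By tags, 10 of 26 anti-CD40 and 12 of 16 isotype cells had at least 10 CD4 tag UMIs and more CD4 than CD8a. Another 9 anti-CD40 and 0 isotype cells had at least 10 CD8a tag UMIs. These 9 had a median of 1280 gene UMIs, against 4134.5 in the 10 anti-CD40 cells with the CD4 tag. The remaining 7 anti-CD40 and 4 isotype cells had neither tag. Gamma-delta constant genes were detected in 6 and 3 of them, Trac or a Trbc gene in 6 and 4, and Trdc in 2 and 1. Tcrg-C2, counted among the gamma-delta constant genes, was also detected in 37 of 108 anti-CD40 CD8 T cells.

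Of 608 genes that passed the minimum in Cd8-zero T cells, 124 (20.4%) were at least 2-fold higher and 51 (8.39%) at least 2-fold lower in the anti-CD40 library, with a median log2 ratio of 0.24. With the 300 CPM minimum these were 96 and 62 of 563. Naive and memory genes were lower in 7 and higher in 1 (Igfbp4, whose UMIs lay in 2 anti-CD40 cells) of 10 that passed, with a median of -1.58. Glycolysis genes were higher in 8 of 9, with a median of 1.74, and interferon-gamma response genes in 5 of 9, with 1.11. Lef1 was 6.84-fold (3.16 to 16.9) lower and Satb1 11.1-fold lower. Zfp36l1, an RNA-binding protein gene, was 5.91-fold lower.

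Cytotoxic genes were higher in 5 and lower in 1 of 7 that passed, and several of the highest genes rested on few cells. The 1 lower was Ccl5, with 222 UMIs in 19 anti-CD40 and 366 UMIs in 9 isotype cells, 1851 and 4070.1 CPM. The cells with neither tag held 114 of the anti-CD40 UMIs in 4 cells and 285 of the isotype UMIs in 4 cells, and among cells with the CD4 tag Ccl5 was at 1258 and 1205 CPM, a ratio of 1.04 (0.753 to 1.45). Gzmb had 60 UMIs in 8 anti-CD40 Cd8-zero T cells and 0 in isotype ones and was at least 15.0-fold higher. Of these Gzmb UMIs 60% lay in 2 cells, and 4 of the 8 cells carried the CD8a tag, which no isotype Cd8-zero T cell did. Ifng had 91 and 7 UMIs, a ratio of 9.75 (4.54 to 24.9), with 82.4% of the anti-CD40 UMIs in 2 cells. Hist1h1b had 80 and 0 UMIs, with 91.2% in 2 cells. All anti-CD40 UMIs of Ifitm1 (79), Tnfrsf4 (59), Hist1h3c (38) and Igfbp7 (35) lay in 2 cells each. The fibroblast list summed to 5093 CPM in anti-CD40 and 66.7 CPM in isotype Cd8-zero T cells, from 4 anti-CD40 cells of which 1 had at least 10 such UMIs. Without that cell the log2 ratio of Igfbp7 was 1.89, against 4.92 with it.

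Among the cells with the CD4 tag (10 anti-CD40, 12 isotype) the naive genes Ccr7 and Tcf7 had 1 UMI each in the anti-CD40 library and 27 and 28 UMIs in the isotype library. Lef1 had 5 and 39 UMIs. Ifng had 81 UMIs in 5 anti-CD40 cells and 1 UMI in 1 isotype cell, and Gzmb 47 UMIs in 3 cells and 0. Tnfrsf4, the costimulatory receptor OX40, had 59 UMIs in 2 anti-CD40 cells and 0. Foxp3 was found in 2 and 1 of these cells.

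CD8 T cells were set against Cd8-zero T cells of the same library, of which 9 in the anti-CD40 library carried the CD8a tag. Of 390 genes that passed the minimum in both libraries, 1 (0.256%) was at least 2-fold higher in CD8 T cells in both, Cxcr3, at 215 against 91.7 CPM in the anti-CD40 library and 270.5 against 77.8 CPM in the isotype library. The isotype value rests on few cells, since 73.3% of the Cxcr3 UMIs of isotype CD8 T cells lay in 2 cells. Another 1 (0.256%) was at least 2-fold lower in both, the phagocyte list gene Apoe, named after its values were seen, at 147 against 609 CPM and 108 against 456 CPM. Neither passed when cells were thinned to 1000 UMIs. Ly6c2, a surface antigen of memory and effector CD8 T cells, was higher in CD8 T cells by a log2 ratio of 1.29 in the anti-CD40 and 0.91 in the isotype library, and Nkg7 by 0.90 and 1.07. Epsti1, an interferon-induced gene, was higher by 1.43 and 0.66, Plac8 by 0.75 and 3.99, and Ctsw, a lymphocyte cathepsin, by 0.53 and 0.76. Eif4a1, a translation helicase, and Cox8a, a respiratory chain subunit, were higher by 0.57 and 0.59 in the anti-CD40 library.

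On the lower side Il7r differed by -2.16 in the anti-CD40 and -0.53 in the isotype library. The cyclin genes Ccnl1 and Ccnd3 differed by -0.79 and -0.98 in the anti-CD40 library and by -1.17 and -0.68 in the isotype library. Cytip, Prpf4b and Atrx were lower in CD8 T cells of both libraries, by 0.56 or more on the log2 scale. In Cd8-zero T cells Il7r was at 300.1 CPM in the anti-CD40 and 723 CPM in the isotype library, with 66.7% and 50.8% of its UMIs in 2 cells. In the isotype library an Il7r UMI was found in 13 of 14 CD8 and 12 of 16 Cd8-zero T cells.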

How the data were processed

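Gene transcripts and antibody tags were counted in 2 droplet libraries of heart cells. The authors deposited raw UMI counts per feature and barcode, whole numbers with no normalization, for 32285 genes and 198 antibody tags, including 9 control antibodies. The matrices name Cell Ranger 6.0.1, per the file headers, but Cell Ranger 3 and Seurat 3 are the tools, and mm10 and GRCh38 the builds, in the submitters' processing notes, with no role stated. No deposited annotation of cells was used; T cells were chosen by UMI sums. The members and gene lists were chosen with earlier results of these data known.

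UMIs were summed per set and library, scaled to CPM, and compared as log2 ratios with 10 CPM added, among genes with at least 30 UMIs and 5% of cells in the library where higher. Rates carry exact Poisson, ratios exact conditional binomial and shares Clopper-Pearson 95% intervals (scipy 1.17.1, numpy 2.4.6, pandas 2.3.3, Python 3.11.15), for counting error only. A gene at 0 was set to 3 counts per library for a bound, which lies above the exact 95% lower limit of the ratio. Shares and per-cell sums were also taken after thinning each cell to 1000 UMIs; 4 anti-CD40 and 0 isotype Cd8-zero T cells were shallower and left out. No doublet caller was run. The limits on other cell types let up to 9 C1q UMIs pass and do not screen droplets of several T cells or of a T cell and a fibroblast, and 1 anti-CD40 CD8 T cell had 44 CD4 tag UMIs. Barcodes over 3 times the median depth were left out as an alternative. Scaling by TMM (edgeR 4.0.16 in R 4.3.3) and by median of ratios were alternatives. The summation and calls were checked on simulated Poisson counts, which hold no spread between cells. In the CD8 set 23% of raised and 67% of lowered genes were called at a true 2-fold, and 100% of both at 4-fold. Of unchanged genes 7.48%, 5.98% and 24.3% were called when others changed 2-, 4- and 8-fold. In the Cd8-zero set these were 1.25%, 3.86% and 36.9%.

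The named genes were, by log2 ratio, the highest 12 and the lowest 8 in CD8 T cells, the 6 highest and 4 lowest in Cd8-zero T cells, and the 8 highest and 6 lowest between the sets, passing over markers of other cell types, genes used to choose the cells, receptor, ribosomal, mitochondrial and unnamed genes, and genes higher in phagocytes. Up to 4 members of each list were added, the most abundant and those of largest ratio. Some genes and tags that meet these rules are not reported here. Promoters were RefSeq sequence of GRCm38.p6.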

Additional observations from a re-analysis of the deposited data

Results flagged for a closer look

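Some differences between the sets of T cells stood out and were not tested. The log2 ratio of anti-CD40 over isotype pointed one way in CD8 T cells and the other way in Cd8-zero T cells for 4 named list members, past 2-fold in both. For Itga4, an integrin chain, it was 1.60 in CD8 T cells and -1.09 in Cd8-zero T cells. Ccl5 had 3.47 and -1.13, with 53.6% of its anti-CD40 and 53.3% of its isotype UMIs in Cd8-zero T cells in 2 cells, and 0.06 among the Cd8-zero T cells with the CD4 tag. The immediate early gene Fos had -1.21 and 1.00, and the heat shock gene Hspa1a had -1.01 and 1.58, with 85.7% of its anti-CD40 UMIs in Cd8-zero T cells in 2 cells.

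T cell transcripts were also found among barcodes outside the quality filter, which no comparison used. Of these, 43 of 2809 anti-CD40 barcodes (1.53%, 1.11 to 2.06) and 14 of 2350 isotype barcodes (0.596%, 0.326 to 0.998) met the limits for a T cell, and 11 and 2 of them had at least 2 Cd8 UMIs.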

How the results depend on the processing

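No paired analysis was possible because each group was 1 library. Of 632 values of 51 named gene results under 16 settings, 137 moved by 0.5 or more on the log2 scale and 1 turned: Cd4 in Cd8-zero T cells, -1.01 in the report, was 1.42 when barcodes needed 500 genes and less than 5% mitochondrial UMIs. That filter also gave T and CD8 shares of 4.21% and 83.5% in the anti-CD40 library, an interferon-gamma list median of 1.75 and 24 lower genes in Cd8-zero T cells. Strict limits on other cell types gave T cell shares of 1.17% and 0.860%, 295 higher genes in CD8 and 24 in Cd8-zero T cells, cytotoxic and cell cycle medians of 2.71 and 4.21, and 0 genes lower in CD8 than in Cd8-zero T cells. Adding 1 CPM gave cytotoxic, checkpoint and cell cycle medians of 2.39, 5.35 and 3.22, and adding 50 CPM gave 1.02, 1.11 and 1.43, a naive median of -2.09 and 303 higher genes in CD8 T cells. At 10 UMIs with no minimum share, 1615 genes were higher and 147 lower in CD8 and 507 and 229 in Cd8-zero T cells. Thinning gave 166 and 16, 13 and 12, an interferon-gamma median of 1.82, and 0 and 0 genes between the sets. Without very deep cells 78 genes were higher in Cd8-zero T cells. By UMIs per cell 27 tags were higher. The 300 CPM minimum, chosen after seeing the data along with the settings on fibroblast transcripts and the CD4 tag, gave 108 higher genes in CD8 T cells and cytotoxic and interferon-gamma medians of 2.79 and 1.88. The causes were not tested, except that a stricter minimum or thinning tests fewer genes. The 14 isotype CD8 T cells limit depth: a gene under 33.3 CPM there can show 0 UMIs.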
